A study of Homo sapiens with 12 samples.

Results

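The genes described here encode the machinery that repairs DNA breaks and cross-links and the kinases that signal them. They are 41 genes chosen by name, with no measured value in the rule beyond a mean of at least 10 normalized counts over all libraries. All 41 names were found in the table of 16383 listed genes, and all 41 passed that minimum, as did 11242 genes in all. They were grouped by repair route: 11 mediators of homologous recombination, 8 genes of end resection and junction dissolution, 10 Fanconi genes, 6 genes of end joining, 1 mismatch repair gene and 5 checkpoint genes.

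Poly(A) RNA was sequenced from IMR90 cells, an established and wild-type line of human lung fibroblasts, in 4 groups of 3 libraries. Proliferating cells had no treatment. The other 3 groups had received 20 Gy of ionizing radiation over 10 min to bring on senescence, the lasting arrest of the cell cycle, and were harvested on day 11. They were given DMSO (the vehicle), 2 µM palbociclib, an inhibitor of the kinases CDK4 and CDK6, or 2 µM ruxolitinib, an inhibitor of the Janus kinases, and each inhibitor was added afresh every other day from day 4 through day 10. All groups are the same single cell line, so other fibroblasts are not represented, and the labels do not say whether the 3 libraries of a group came from separate cultures. The p-values therefore measure the spread between these libraries, which may be technical. No group received an inhibitor without radiation, and the day of harvest of the proliferating cells is not given in the sources used here.

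Homologous recombination copies the intact sister chromatid to mend a broken one and works mainly in S and G2 phase, when a sister is present. MRE11, RAD50 and NBN bind the broken ends, RBBP8 and EXO1 trim them to single strands, and BRCA1, PALB2 and BRCA2 prepare those strands for pairing with the sister. The Fanconi pathway opens cross-links between the strands during replication, with the FANCD2 and FANCI pair as its switch. Classical end joining, with Ku (XRCC5 and XRCC6), DNA-PKcs (PRKDC), XRCC4 and LIG4, seals ends in any phase, while POLQ joins ends through short stretches of matching sequence. ATM and ATR sense damage and activate the kinases CHEK2 and CHEK1. In senescent fibroblasts, persistent signalling from damaged DNA is a textbook feature.

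The libraries held 14106799 to 21762412 recovered reads on listed genes, and the fibroblast markers (COL1A1, COL1A2, COL3A1, VIM, PDGFRB, THY1, DCN and LUM) summed to 403689 normalized counts or more in every library. That sum moved with the groups: it was 813770 to 847555 in proliferating cells, 403689 to 414316 with DMSO, 646634 to 679817 with palbociclib and 510843 to 514800 with ruxolitinib. Of the 8 markers, 6 were called lower and 2 higher after irradiation, beside 39.3% and 33% of all genes tested. With palbociclib against DMSO all 8 were called higher, beside 26% of all genes tested. The 4 leukocyte markers summed to 543.7 to 569.6 in proliferating cells, 1223 to 1308 with DMSO, 696.1 to 805.7 with palbociclib and 1068 to 1146 with ruxolitinib. The 4 epithelial markers summed to 99 to 143.1 in proliferating and 266.3 to 501.4 in irradiated libraries, and the 4 endothelial markers to 5.55 to 9.34 and 21 to 56.7. These sums rest on few genes. Of the leukocyte markers, 3 stayed under 10 in every proliferating library and 2 in every library of each irradiated group. Per group, 1 or 2 epithelial and 1 to 4 endothelial markers stayed under 10 in every library. Libraries are named by the number in their column header. A126 (proliferating) and A120 (palbociclib) stood apart from their replicates, with 11.9 to 25.1 times the variance that counting gives, against 1.98 to 6.43 for the other pairs. The 10 markers of proliferating cells (MKI67, TOP2A, CCNB1, CCNA2, CDK1, MCM2, RRM2, BUB1, E2F1 and PCNA) summed to 49384 to 56653 normalized counts in proliferating cells, 7166 to 7357 with DMSO, 1870 to 2149 with palbociclib and 5726 to 5789 with ruxolitinib. The proliferation markers moved with most of the repair genes below, and the part of any of these marker lists in the results was not tested. In bulk RNA, fewer cells that express a gene and less RNA per cell cannot be told apart.

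In irradiated DMSO cells most of the repair genes stood well below their level in proliferating cells. Of the 41, 34 were called lower and 3 higher by limma at a Benjamini-Hochberg adjusted p under 0.05, and RAD50, ATM, ATR and CHEK2 were not called. Over all genes tested, 39.3% were called lower and 33% higher in this comparison, so most genes moved, but the direction was mixed. The median log2 fold change was -1.63 over the 41 genes and -0.05 over all genes tested. Falls of at least 2-fold were called for 27 of the 41, beside 1010 of the 11242 genes tested. The DMSO and proliferating libraries did not overlap for 37 of the 41 genes, against 75.1% of all genes tested. Fold changes are on the log2(normalized count + 1) scale throughout.

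**Figure D1:**
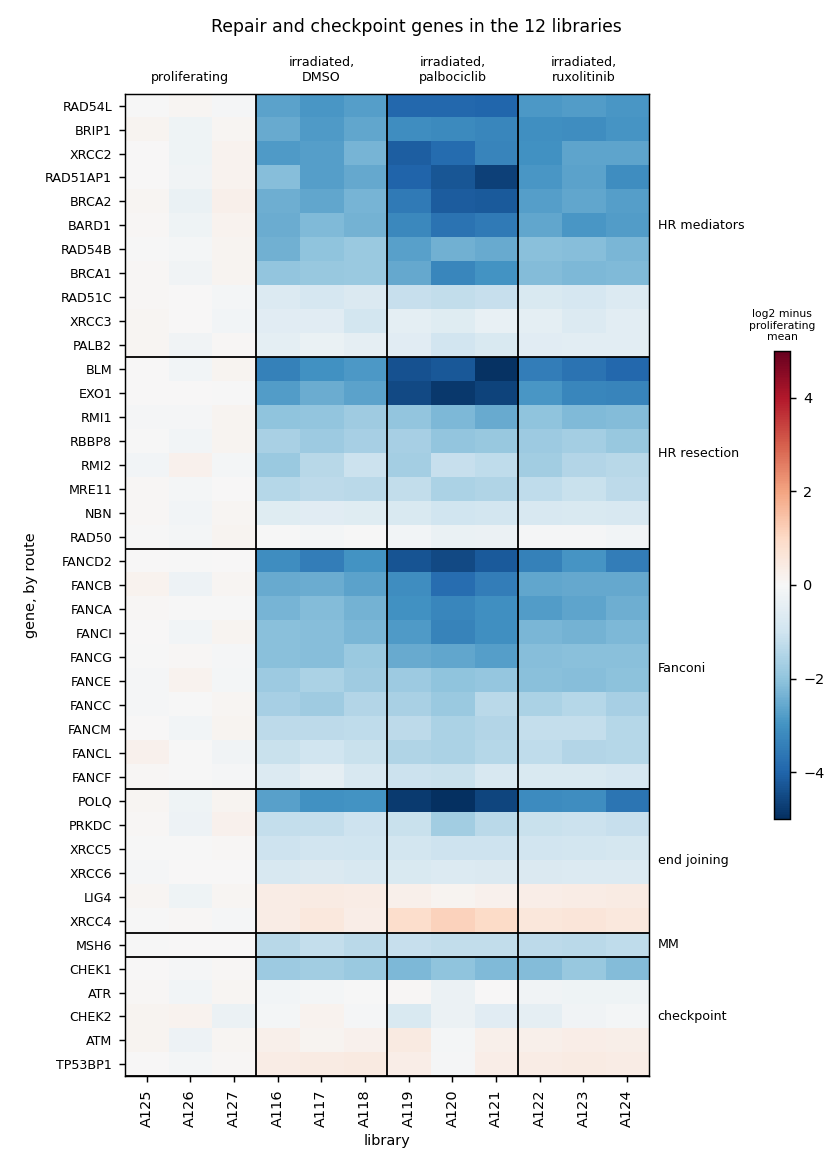
Each cell is the log2(normalized count + 1) of a gene in a library (columns) minus its mean in the 3 proliferating libraries. Genes are ordered by route and, within a route, by their change after irradiation. Most rows of homologous recombination and Fanconi genes are lower in the 9 irradiated libraries and lowest with palbociclib. ATM and ATR differ little from their proliferating means, and TP53BP1, LIG4 and XRCC4 are higher with DMSO.

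Promoter sequence was examined because so many of these genes fell together. The cell cycle factors of the E2F family bind short sites near the start of many S-phase genes. RefSeq promoter windows (GRCh38.p14, 250 bases before to 50 after each start) were at hand for 35 of the 41 genes. XRCC5, RAD54B, FANCI, RMI2, NBN and PRKDC had no entry. The E2F letters searched were TTTCCCGC, TTTCGCGC, TTTGCCGC and TTTGGCGC on both strands, and 8 of the 35 genes (22.9%) held a match, compared with 6.72% of 9163 tested genes with a window and 3.99% of all 27305 genes with one. No test was made of these shares. Every matched stretch is shown as 30 bases, read 5′ to 3′ on the strand of the gene, with the match in capitals. FANCC holds matches on both strands.
FANCD2 (chr3:10026424-10026453, plus strand): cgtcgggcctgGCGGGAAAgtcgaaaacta
XRCC2 (chr7:152676102-152676131, minus strand): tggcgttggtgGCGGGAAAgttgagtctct
EXO1 (chr1:241848197-241848226, plus strand): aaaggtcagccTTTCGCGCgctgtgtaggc
FANCA (chr16:89816801-89816830, minus strand): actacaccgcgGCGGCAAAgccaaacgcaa
RMI1 (chr9:83980762-83980791, plus strand): ggcgcgagcgcGCGGCAAAtcgggcgggaa
FANCC, opposite strand (chr9:95317863-95317892, minus strand): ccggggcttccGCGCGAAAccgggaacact
FANCC, same strand (chr9:95317737-95317766, minus strand): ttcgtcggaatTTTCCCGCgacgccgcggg
MSH6 (chr2:47783137-47783166, plus strand): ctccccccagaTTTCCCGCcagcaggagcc
XRCC6 (chr22:41621315-41621344, plus strand): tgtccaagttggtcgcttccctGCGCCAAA

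All 8 genes with an E2F match fell after irradiation, with log2 fold changes from -3.19 (FANCD2) to -0.77 (XRCC6) and a median of -2.10. Among the 27 without a match, 20 fell, 3 rose and 4 were not called, with a median of -1.36. A match is a description of letters in a window, and BRCA1, BLM and POLQ fell strongly without one. Of the 10 mediators of homologous recombination with a window, 1 held a match. With palbociclib, 5 of the 8 genes with a match were called lower, as were 17 of the 27 without. The cell cycle homology letters TTTGAA were found in 4 of the 35 genes (11.4%), namely BRIP1, FANCC, ATM and POLQ, compared with 14.3% of tested genes. The letters CCAAT were found in 20 of the 35 (57.1%), compared with 43.8%.

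Among the 11 mediators of homologous recombination, all fell after irradiation, with a median log2 fold change of -2.35. BRCA1 (chr17:43044295-43170245, minus strand in GENCODE), the ubiquitin ligase subunit that steers breaks to recombination, stood at 1002, 854 and 1047 normalized counts in the proliferating libraries A125, A126 and A127. It stood at 247.5, 261.6 and 267.1 with DMSO (A116, A117, A118), 162.7, 100.7 and 119 with palbociclib (A119, A120, A121) and 211.4, 203.5 and 208.4 with ruxolitinib (A122, A123, A124). No 2 groups overlapped, with proliferating cells highest and palbociclib lowest. BRCA1 changed by -1.89 ± 0.13 (SE, n = 3 per group) after irradiation (limma adjusted p = 3.78e-09) and by a further -1.04 ± 0.13 with palbociclib against DMSO (adjusted p = 1.43e-05). With ruxolitinib its difference from DMSO was -0.31 (95% interval -0.60 to -0.03, adjusted p = 0.257), which was not called.

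BRCA2 (chr13:32315086-32400268, plus strand), a mediator that acts on the single strand, stood at 907.9, 672.1 and 1004 in proliferating cells, 157.4, 139.7 and 170.0 with DMSO, 73, 46 and 45.3 with palbociclib and 126.5, 140.5 and 126.3 with ruxolitinib. The DMSO and ruxolitinib values overlapped, and the palbociclib values lay below both. Its mean with palbociclib was 6.36% of that in proliferating cells and 35.2% of that with DMSO, a log2 fold change of -1.52 against DMSO (adjusted p = 4.51e-06). BARD1, the obligate partner of BRCA1, kept 19.4% of its proliferating mean with DMSO and 8.92% with palbociclib. RAD51AP1, an accessory factor of strand pairing, showed the largest fall with palbociclib in this group: 44.3, 36.1 and 27.5 normalized counts against 164.3, 105.4 and 122.6 with DMSO, a log2 fold change of -1.83 ± 0.18 (adjusted p = 1.21e-06).

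RAD54L, a motor protein that aids strand exchange, stood at 585.2, 644.4 and 573.3 in proliferating cells and at 94, 79.3 and 89 with DMSO, the largest fall of the mediators after irradiation (-2.77 ± 0.11, adjusted p = 4.09e-12). With palbociclib it stood at 38.7, 38.3 and 37.3, a further -1.17, and with ruxolitinib at 80.2, 86.4 and 78.5, which overlapped DMSO. XRCC2, a recombination mediator whose E2F match is shown above, was low in number, with 13.3 to 24 normalized counts with palbociclib against 33.7 to 48.6 with DMSO (-1.11 ± 0.22, adjusted p = 7.42e-04). RAD54B fell by 2.09 after irradiation and by 0.44 with palbociclib. For RAD54B the palbociclib and DMSO values met, at 74.4 in A120 and 74.2 in A116. Its palbociclib call (adjusted p = 0.0167) ended without A117, A118 or A119 (adjusted p 0.0542 to 0.0886), with only the 2 groups fitted (0.0555) and with quantile normalization (-0.15, adjusted p = 0.44). FSBP on the same strand overlaps 66% of the exonic bases of RAD54B, so its count is uncertain. The smaller changes after irradiation were those of RAD51C (-0.75), XRCC3 (-0.68) and PALB2 (-0.41), the bridge between BRCA1 and BRCA2. PALB2 was no longer called with all libraries scaled to the same total (-0.18, adjusted p = 0.0981), and its palbociclib call ended with quantile normalization (-0.24, adjusted p = 0.0639). XRCC3 was the one mediator not called with palbociclib, at 0.18 (95% interval -0.04 to 0.41). KLC1 on the opposite strand overlaps 76.7% of the exonic bases of XRCC3, and the strand setting of the counting is not given in the sources used here, so XRCC3 is uncertain.

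**Figure D2:**
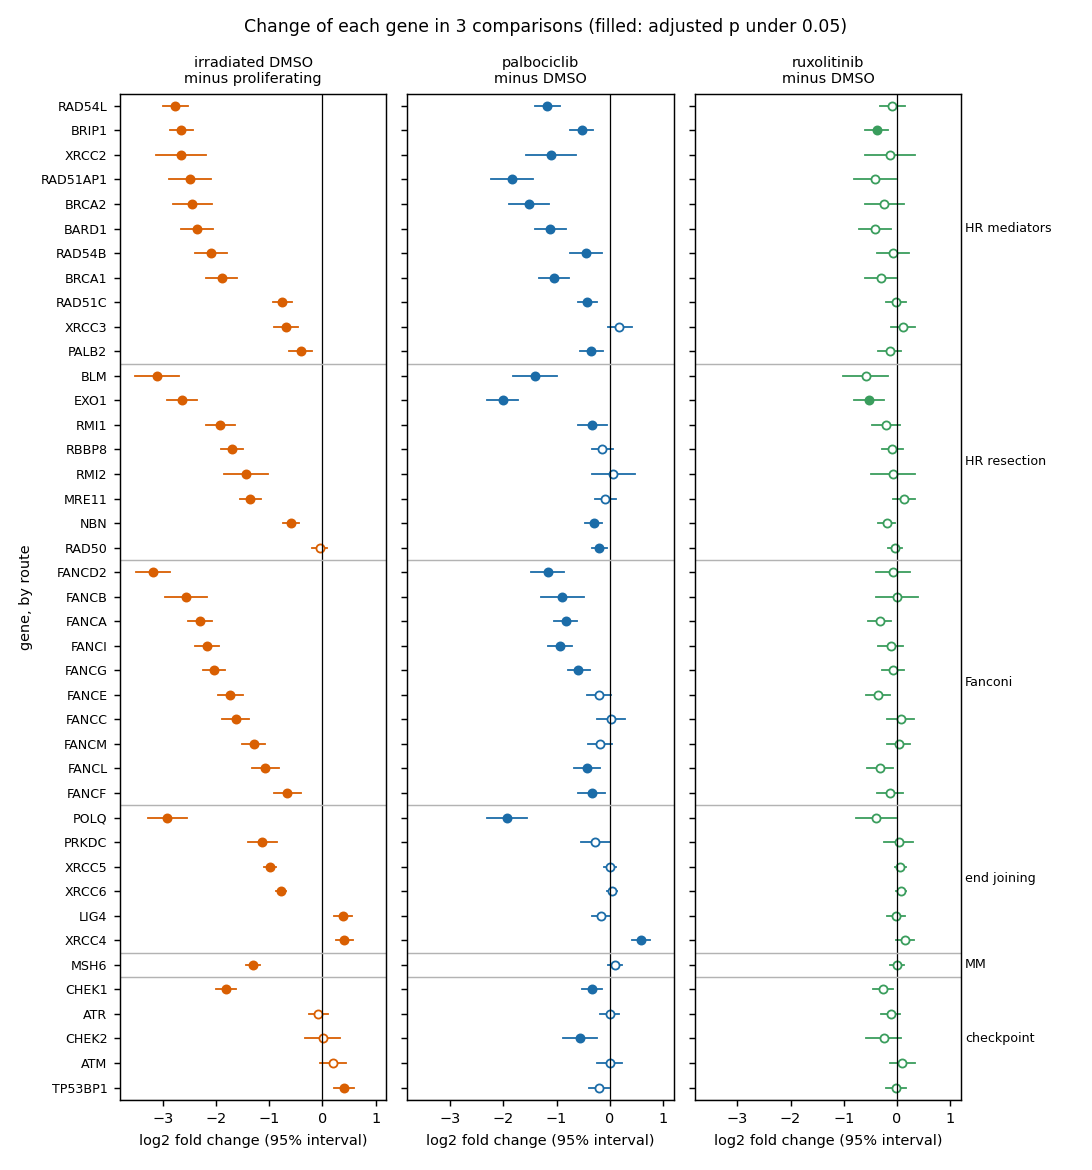
Log2 fold change of each gene (points, with 95% intervals as lines) in irradiated DMSO against proliferating cells, palbociclib against DMSO and ruxolitinib against DMSO, from the limma fit over 12 libraries. Filled points passed an adjusted p under 0.05, which 37, 26 and 2 of the 41 genes did, compared with 72.4%, 48.3% and 4.52% of all genes tested.

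BRIP1, the helicase that binds BRCA1, was among the 2 genes called lower in all 3 of these comparisons. It stood at 1729, 1360 and 1671 in proliferating cells, 271.2, 223.7 and 260.2 with DMSO, 184.8, 173.0 and 162.6 with palbociclib and 189.8, 184.6 and 202.1 with ruxolitinib. The values of both inhibitors lay below those with DMSO and overlapped each other. BRIP1 changed by -2.65 after irradiation, -0.53 with palbociclib and -0.38 with ruxolitinib (adjusted p = 2.73e-12, 5.15e-04 and 0.0414 in limma). Its promoter and that of CHEK2, which did not change after irradiation beyond the spread of its libraries, are set side by side because each window of 300 bases holds the CCAAT letters 3 times, seen here on the opposite strand as ATTGG in capitals. The 120 bases shown hold 3 of these in BRIP1 and 2 in CHEK2. This pair was chosen after their values were seen.
BRIP1 (chr17:61863529-61863648, minus strand): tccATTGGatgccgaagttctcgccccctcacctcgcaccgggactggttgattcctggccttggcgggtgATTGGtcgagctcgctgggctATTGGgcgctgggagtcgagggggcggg
CHEK2 (chr22:28741821-28741940, minus strand): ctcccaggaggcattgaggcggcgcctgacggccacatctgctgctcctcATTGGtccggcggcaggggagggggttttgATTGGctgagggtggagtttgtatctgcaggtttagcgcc

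Of the 8 genes of resection and dissolution, 7 fell after irradiation, with a median over the 8 of -1.57. EXO1, the exonuclease that lengthens the single-stranded tail, stood at 706.6, 722 and 687.5 in proliferating cells and at 102, 126.7 and 109.9 with DMSO. With palbociclib it stood at 29.9, 24.1 and 27.5, and with ruxolitinib at 91.8, 72 and 70.4. No 2 groups overlapped. EXO1 was the gene with the largest fall with palbociclib of the 41 (-2.01 ± 0.13, adjusted p = 1.06e-08), down to 24.1% of the DMSO mean, and it was called lower with ruxolitinib as well (-0.53 ± 0.13, adjusted p = 0.0313). Palbociclib lay below ruxolitinib by 1.48 on the log2 scale (95% interval of the difference -1.77 to -1.20).

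BLM, the helicase that dissolves crossed strands with RMI1 and RMI2, stood at 549.9, 489.1 and 591.3 in proliferating cells, 50.5, 65.1 and 72.8 with DMSO, 25.5, 27.4 and 16.9 with palbociclib and 47.8, 41.4 and 34.3 with ruxolitinib. The proliferating libraries lay far above all others, and the palbociclib libraries lay below all others. BLM fell by 3.10 after irradiation and by 1.41 with palbociclib. Its ruxolitinib libraries also lay below the DMSO ones, at -0.59 (95% interval -1.01 to -0.18), but this was not called (adjusted p = 0.111). Of its partners, RMI1 was called lower with palbociclib (-0.33, 95% interval -0.59 to -0.06, adjusted p = 0.0424). RMI2 was not called (0.07, 95% interval -0.34 to 0.48). These intervals overlap, and the difference between the 2 partners was not tested. The RMI1 call ended when any of the libraries A116, A117, A118, A120 or A121 was left out, with adjusted p from 0.0557 to 0.225. It also ended without a filter on low values (0.107), without a trend (0.0647), with only the 2 groups fitted (0.0903) and with quantile normalization (-0.16, adjusted p = 0.325).

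The 3 subunits of the complex that first binds broken ends moved unequally after irradiation. MRE11, the nuclease, stood at 1023, 906.1 and 983.7 in proliferating cells and 356.3, 395.4 and 382.7 with DMSO, a log2 fold change of -1.36 (adjusted p = 2.32e-09). NBN, which recruits ATM, fell by 0.59, from 1452 to 1726 down to 1062 to 1096. RAD50, the long arm of the complex, stood at 1482, 1395 and 1645 in proliferating cells and at 1464, 1423 and 1469 with DMSO, and was not called (-0.05, 95% interval -0.19 to 0.09). Scaling all libraries to the same total turned the value of RAD50 to 0.18 (adjusted p = 0.0168). Another annotated gene overlaps 76.9% of its exonic bases, so its count is uncertain. With palbociclib NBN (-0.30) and RAD50 (-0.20, adjusted p = 0.0193) were called lower and MRE11 was not (-0.08, 95% interval -0.27 to 0.12). The RAD50 call ended without A116, A118, A120 or A121 (adjusted p 0.0568 to 0.0631). RBBP8, which starts resection with MRE11, fell by 1.70 after irradiation and was not called with palbociclib (-0.14). At the same total both MRE11 (-0.31, adjusted p = 0.00939) and RBBP8 (-0.37, adjusted p = 0.00406) were called lower with palbociclib, as was RBBP8 without A119 (-0.23, adjusted p = 0.0478).

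All 10 Fanconi genes fell after irradiation, with a median log2 fold change of -1.88, and 9 of the 10 fell at least 2-fold. FANCD2 (chr3:10026370-10101932, plus strand), the ubiquitylated switch of the pathway, stood at 1079, 1026 and 1054 in proliferating cells and at 119.8, 94.7 and 133 with DMSO. This was the largest fall of the 41 genes (-3.19 ± 0.15, adjusted p = 2.44e-11). With palbociclib FANCD2 stood at 52, 44.9 and 56, below every other library, a further -1.16 ± 0.15 (adjusted p = 1.29e-05), and with ruxolitinib at 99.5, 136 and 95.6, which overlapped the DMSO values. FANCI, its partner, stood at 2249, 1998 and 2404, then 512.7, 509 and 455.6 with DMSO, 308.8, 214.6 and 260.3 with palbociclib and 457.5, 434 and 470.1 with ruxolitinib. FANCI changed by -2.17 after irradiation and by -0.93 with palbociclib (adjusted p = 5.66e-06).

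Of the core complex that modifies this pair, some genes were called with palbociclib and others were not. FANCB (-0.89), FANCA (-0.83), FANCG (-0.59), FANCL (-0.43), the catalytic subunit, and FANCF (-0.34) were called lower than with DMSO. FANCE (-0.20, 95% interval -0.43 to 0.03), FANCM (-0.18, -0.40 to 0.04) and FANCC (0.02, -0.24 to 0.28) were not called, although all 3 had fallen after irradiation, by 1.73, 1.29 and 1.63. FANCC stood at 151.4, 138.5 and 172.3 with DMSO and at 154.9, 132.5 and 183.9 with palbociclib. The 2 sets overlapped, unlike those of FANCA, at 169.3, 190.6 and 165.4 against 104.0, 88.7 and 102.2. Which genes were called depended on the scaling. With quantile normalization FANCB (-0.39, adjusted p = 0.102), FANCL (-0.18, adjusted p = 0.239) and FANCF (-0.08, adjusted p = 0.62) were not called. At the same total FANCE (-0.43, adjusted p = 0.00413) and FANCM (-0.40, adjusted p = 0.00386) were called lower. The FANCF call also ended without A117, A119 or A120 (adjusted p 0.0713 to 0.128) and with only the 2 groups fitted (0.0729). No difference in response to palbociclib between genes of the complex was tested. This includes FANCC and FANCA, whose promoters both hold E2F letters.

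The 6 end-joining genes divided in direction after irradiation. POLQ, the polymerase of microhomology-mediated joining, stood at 1038, 826.2 and 1050 in proliferating cells, 146.5, 118.4 and 120.3 with DMSO, 34.3, 26.3 and 39.1 with palbociclib and 107.2, 112.6 and 74.9 with ruxolitinib. It fell by 2.91 after irradiation (adjusted p = 4.77e-10) and by 1.93 with palbociclib (adjusted p = 3.23e-07), to 3.42% of its proliferating mean. No other end-joining gene was called lower with palbociclib.

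The Ku subunits and DNA-PKcs, which hold the broken ends, were lower after irradiation and were not called with palbociclib at the authors' scaling. XRCC5 stood at 9906, 9882 and 10578 in proliferating cells and at 4989, 5238 and 5046 with DMSO (-0.99 ± 0.05, adjusted p = 7.36e-11), and at 5415, 4912 and 4957 with palbociclib, where the 95% interval against DMSO ran from -0.11 to 0.11. XRCC5 was called lower with palbociclib under quantile normalization (-0.20, adjusted p = 0.0027) and at the same total (-0.23, adjusted p = 7.47e-04). XRCC6 fell by 0.77 after irradiation and differed by 0.05 with palbociclib (-0.05 to 0.14). XRCC6 has 5 copies by name in the annotation (XRCC6P1 to XRCC6P5), so part of its count is uncertain. The palbociclib value of XRCC6 turned to -0.19 (adjusted p = 0.00214) under quantile normalization and -0.18 (adjusted p = 0.00318) at the same total. PRKDC fell by 1.13 after irradiation. With palbociclib PRKDC stood at 5646, 3628 and 4752 against 5394, 5363 and 5895 with DMSO, with the library that stands apart, A120, the lowest, and was not called (-0.27, adjusted p = 0.0932). PRKDC was called lower without A119 (-0.42, adjusted p = 0.00595), with quantile normalization (-0.48, adjusted p = 0.0033), at the same total (-0.50, adjusted p = 0.00316) and at the same upper quartile (-0.33, adjusted p = 0.034).

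The ligase pair rose after irradiation. XRCC4, the scaffold of the ligase, stood at 293.6, 305 and 286.6 in proliferating cells, 387, 420.3 and 374.6 with DMSO, 550, 655.7 and 578.3 with palbociclib and 433.6, 451.1 and 425 with ruxolitinib. The 4 groups did not overlap, and the order ran from proliferating cells to DMSO, ruxolitinib and palbociclib. XRCC4 rose by 0.41 ± 0.08 after irradiation (adjusted p = 1.91e-04) and by 0.59 ± 0.08 with palbociclib (adjusted p = 1.99e-05), the only one of the 41 called higher there, where 26% of all genes tested were. The step from DMSO to ruxolitinib, 0.15 (95% interval -0.02 to 0.32), was not called. LIG4, the ligase itself, stood at 487.7, 393.7 and 487.5, then 589.9, 602.6 and 581.6 with DMSO (0.38 ± 0.08, adjusted p = 5.07e-04). With palbociclib LIG4 stood at 546.7, 503.5 and 524.1, below every DMSO library but not called (-0.17, adjusted p = 0.0874). It was called lower at the same total (-0.40), at the same upper quartile (-0.23) and by edgeR on recovered reads (-0.20, adjusted p = 0.0497).

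**Figure D3:**
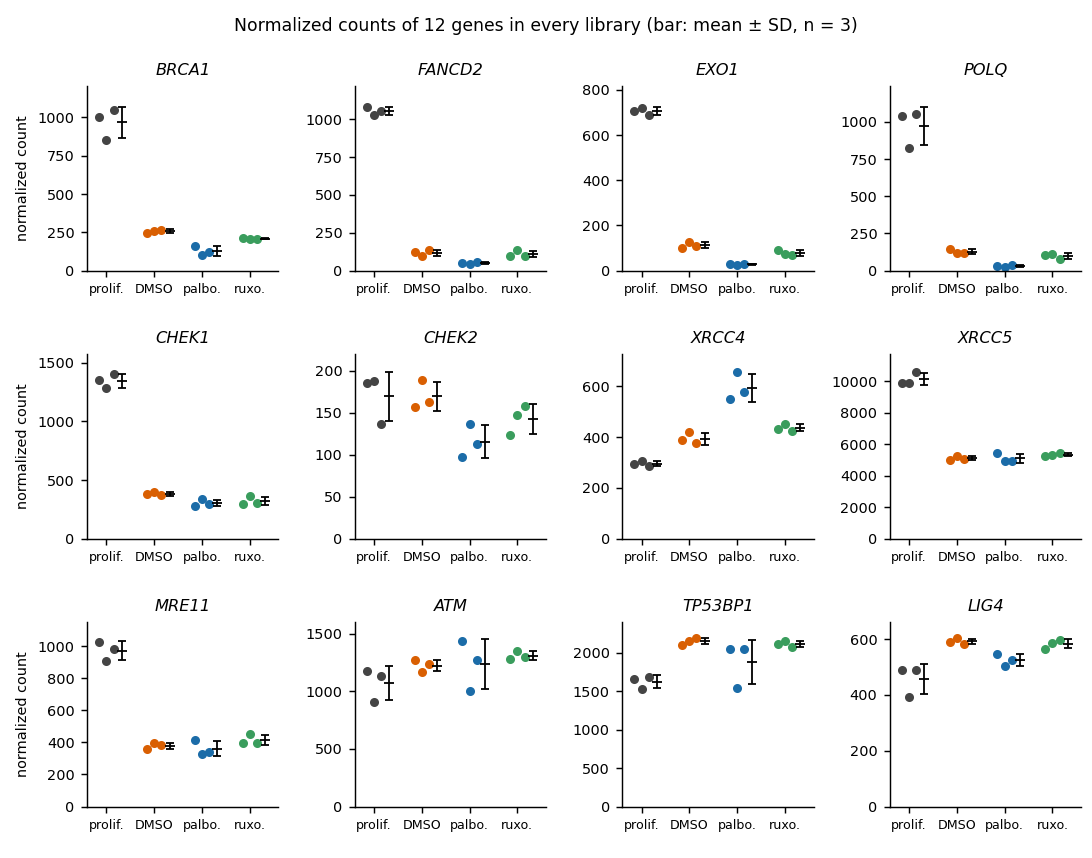
Normalized counts of 12 genes in each library (points) with the mean and SD of the 3 libraries of each group (bars); every axis starts at 0. BRCA1, FANCD2, EXO1, POLQ and CHEK1 are highest in proliferating cells, XRCC4 is highest with palbociclib, and the proliferating and DMSO points of CHEK2 and ATM overlap.

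MSH6, a subunit of the heterodimer that recognises mismatched bases, was the single mismatch repair gene. It stood at 2488, 2544 and 2597 in proliferating cells and at 962.1, 1127 and 1007 with DMSO, a fall of 1.30 on the log2 scale (adjusted p = 2.75e-11). With palbociclib it stood at 1150, 1096 and 1077 and was not called (0.10, 95% interval -0.03 to 0.23), except without A117 (0.17, adjusted p = 0.0331). FBXO11 on the opposite strand overlaps 24.2% of the exonic bases of MSH6.

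Of the 5 checkpoint genes, 1 was called lower after irradiation, CHEK1, and 1 higher, TP53BP1. Over all genes tested the shares were 39.3% and 33%. CHEK1 (chr11:125625163-125676255, plus strand), the effector of ATR, stood at 1352, 1285 and 1402 in proliferating cells, 379.1, 398.9 and 368.9 with DMSO, 282.2, 335 and 293.1 with palbociclib and 297, 360.2 and 299.6 with ruxolitinib. The inhibitor values overlapped each other and lay below DMSO. CHEK1 fell by 1.81 after irradiation (adjusted p = 4.06e-11) and by 0.34 with palbociclib (adjusted p = 0.00533), while -0.27 with ruxolitinib was not called (adjusted p = 0.115). CHEK2 (chr22:28687743-28742422, minus strand), the effector of ATM, stood at 185.7, 187.4 and 136.2 in proliferating cells and 156.4, 189.4 and 163 with DMSO, which overlapped (0.01, 95% interval -0.32 to 0.34). It stood at 97.4, 136.8 and 112.8 with palbociclib, below every DMSO library (-0.56 ± 0.15, adjusted p = 0.00767). With quantile normalization that call ended (-0.35, adjusted p = 0.0752). CHEK2 has 7 copies by name in the annotation (CHEK2P1 to CHEK2P7), so its count is uncertain.

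ATM stood at 1178, 902.8 and 1134 in proliferating cells, 1268, 1168 and 1235 with DMSO, 1440, 1003 and 1268 with palbociclib and 1278, 1353 and 1295 with ruxolitinib. All pairs of groups overlapped except DMSO and ruxolitinib and proliferating and ruxolitinib cells. By limma at the authors' scaling ATM was not called in any comparison. At the same total ATM was called lower with palbociclib than with ruxolitinib (-0.30, adjusted p = 0.0353). Its value after irradiation was 0.20 (95% interval -0.04 to 0.44, adjusted p = 0.119), and it was called higher by edgeR (0.25, adjusted p = 0.0488) and DESeq2 (0.25, adjusted p = 0.0415) on recovered reads and under 3 other scalings (0.35 to 0.43). ATR was not called in any comparison at the authors' scaling with all 12 libraries, at -0.08 after irradiation (95% interval -0.26 to 0.10). Its direction after irradiation turned under 3 other scalings (0.07 to 0.15). Without A120, limma called ATR higher with palbociclib than with ruxolitinib (0.23, adjusted p = 0.0211). At the same total ATR was called lower with palbociclib than with DMSO (-0.23, adjusted p = 0.0281). TP53BP1, which shields ends from resection, rose from 1660, 1525 and 1692 to 2107, 2160 and 2190 with DMSO (0.41 ± 0.09, adjusted p = 5.01e-04). TUBGCP4, which overlaps 28.8% of the exonic bases of TP53BP1 on the other strand, changed by -0.77. With palbociclib TP53BP1 stood at 2045, 1548 and 2051 and was not called (-0.21, adjusted p = 0.0577), but it was called lower by edgeR (-0.22, adjusted p = 0.0404), by DESeq2 (-0.22, adjusted p = 0.0395), under 3 other scalings (-0.43 to -0.27) and without A119 or A121 (both -0.27).

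Against DMSO, 25 of the 41 genes were lower with palbociclib and 1 was higher, compared with 22.3% lower and 26% higher over all genes tested. The median log2 fold change of the 41 was -0.34, beside 0.02 over all genes tested. Falls of at least 2-fold were called for 606 of the 11242 genes tested. Among the 41 they were called for 10: EXO1, POLQ, RAD51AP1, BRCA2, BLM, RAD54L, FANCD2, BARD1, XRCC2 and BRCA1. By route, 10 of 11 mediators, 5 of 8 resection and dissolution genes, 7 of 10 Fanconi genes, 1 of 6 end-joining genes and 2 of 5 checkpoint genes were called lower. Of the 34 genes that were lower after irradiation, 23 were lower again with palbociclib and 11 were not called: XRCC3, FANCC, FANCE, FANCM, RBBP8, MRE11, RMI2, XRCC5, XRCC6, PRKDC and MSH6. RAD50 and CHEK2 were called lower with palbociclib but not after irradiation. Both comparisons use the same DMSO libraries, so their values are given side by side and not related to each other. Leaving out A120, the palbociclib library that stands apart, left 22 genes lower, with FANCF, RAD50 and RMI1 lost, and leaving out A126 kept 34 lower and 3 higher after irradiation.

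Scaling shifted the median gene in both comparisons. At the same total the shift was 0.23 after irradiation and -0.23 with palbociclib against DMSO, and at the same upper quartile it was 0.15 and -0.06. With palbociclib 35 of the 41 genes were called lower at the same total and 22 with quantile normalization, while after irradiation 33 and 34 were. The share of all genes tested was not counted at these scalings, so these counts have no background beside them. The count of 25 at the authors' scaling, used for all values here, lies between these.

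Few of these genes were called with ruxolitinib, 4.88% of the 41, which is near the 4.52% of all genes tested. BRIP1 and EXO1 were called lower and 0 of 41 higher by limma, beside 3.42% lower and 1.1% higher over all genes tested, and the median of the 41 was -0.09. At an unadjusted p under 0.05, limma gave 12 lower and 0 higher. The share of all genes tested at that threshold was not counted, so these 2 counts have no background beside them. EdgeR called 1 lower and 0 higher on recovered reads, and DESeq2 called 2 lower and 0 higher. For 14 of the 41 every ruxolitinib library lay below every DMSO library, and for 2 above, against 17% and 14.9% of all genes tested. The share below was larger than over all genes tested and the share above smaller, and neither difference was tested. Both calls were near the threshold (limma adjusted p = 0.0414 for BRIP1 and 0.0313 for EXO1) and ended when single libraries were left out. The values stayed below 0 under every alternative, from -0.47 to -0.33 for BRIP1 and from -0.65 to -0.44 for EXO1. Without A118, A123 or A124 neither remained, without A116 or A122 only EXO1 did, and without A117 only BRIP1 did. Without A123 CHEK1 was called instead (-0.36, adjusted p = 0.045). A fit of only the 2 groups called 8 genes lower, adding BRCA1 (-0.31), BARD1 (-0.41), FANCA (-0.33), BLM (-0.59), NBN (-0.19) and CHEK1 (-0.27). For this fit, edgeR and DESeq2 the share of all genes tested was not counted.

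The 2 inhibitors were given at the same dose and on the same days, so they were compared directly. Palbociclib lay below ruxolitinib for 15 of the 41 genes and above for 1, XRCC4 (0.44 ± 0.08, adjusted p = 3.78e-04), beside 17.6% lower and 22.8% higher over all genes tested. The median difference of the 41 was -0.21, beside 0.02 over all genes tested. The differences were largest for POLQ (-1.53), EXO1 (-1.48), RAD51AP1 (-1.42), BRCA2 (-1.28), FANCD2 (-1.09) and RAD54L (-1.08). Some genes that were lower with palbociclib than with DMSO had no call here, among them BRIP1 (-0.15, 95% interval -0.36 to 0.07), CHEK1 (-0.07, -0.26 to 0.12) and FANCL (-0.11, -0.36 to 0.14). At the same total 34 genes were called lower, and at the same upper quartile 25, with the median gene shifted by -0.20 and -0.08. The share of all genes tested was not counted at these scalings.

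The other genes of these pathways were read from 6 lists of 118 names, of which 100 were tested. After irradiation 67 of the 100 were called lower and 13 higher, with a median of -0.67, beside 39.3% and 33% of all genes tested. With palbociclib against DMSO 36 were lower and 11 higher (median -0.13), beside 22.3% and 26% of all genes tested. With ruxolitinib 1 was lower and 0 higher by limma, beside 3.42% and 1.1%. At an unadjusted p under 0.05 limma gave 9 lower and 5 higher, and the share of all genes tested was not counted there. EdgeR called 1 lower and 1 higher, and DESeq2 2 and 1, also without a share of all genes tested. Of 22 other recombination genes 18 (81.8%) were lower after irradiation and 1, RAD52, was higher (0.32). Of 13 other Fanconi genes 8 (61.5%) were lower, led by USP1 and UBE2T (both -2.39), the enzymes that remove and attach the ubiquitin of FANCD2.

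**Figure D4:**
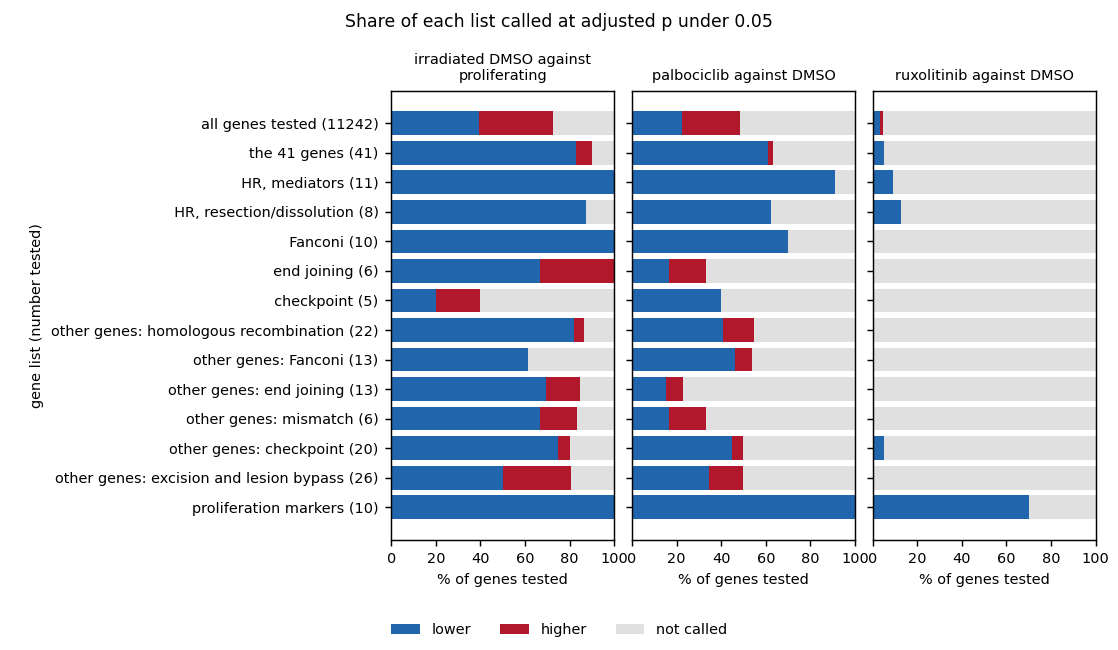
Share of each gene list (number tested in brackets) called lower (blue), higher (red) or not called (grey) in 3 comparisons, from 0 to 100% of the genes tested. The mediators and Fanconi genes are 100% lower after irradiation, the checkpoint genes among the 41 are 20% lower and 20% higher, and with ruxolitinib the proliferation markers have the highest share, 70% lower.

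In the other checkpoint genes the phosphatase CDC25C (-3.58), the CHEK1 adaptor CLSPN (-2.75) and the kinase PKMYT1 (-2.58), which holds CDK1 inactive, fell most after irradiation. Of 20 tested, 15 were lower (75%) and 1 was higher (5%), beside 39.3% and 33% of all genes tested. The higher one was MDM2, a ubiquitin ligase, which rose by 1.77 (limma adjusted p = 5.65e-14). With palbociclib CLSPN (-2.38), PKMYT1 (-1.92), CDC25C (-1.89) and MDM2 (-1.13) were all called lower. PKMYT1 was the one gene of these lists called lower with ruxolitinib (-0.68, adjusted p = 0.0102).

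Of 26 excision repair and lesion bypass genes, 13 were lower and 8 higher after irradiation (median -0.20), shares of 50% and 30.8% beside 39.3% and 33% of all genes tested. RRM2B, a damage-induced subunit of ribonucleotide reductase, rose by 2.35 (adjusted p = 1.21e-11), ERCC6 by 1.03 and ERCC5 by 0.87. The glycosylase NEIL3 fell by 2.89. With palbociclib NEIL3 changed by a further -2.48 (adjusted p = 4.37e-06), and XPC (-0.72), ERCC5 (-0.65) and FEN1 (-0.67) were lower too. Among 13 other end-joining genes, 9 were lower and 2 higher after irradiation, and LIG1, the replicative ligase, had the largest changes in both comparisons (-1.86 and -1.13).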

How the data were processed

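Poly(A) RNA of 12 IMR90 libraries, 3 per group, was compared. The authors deposited this signal as 1 table of normalized counts per gene, per the file headers, and the steps in its values are those of reads divided by 1 factor per library. Per the submitters' processing notes, Trimmomatic 0.38.1, HISAT2 2.2.1, featureCounts 2.0.3, FastQC 0.74, MultiQC and DESeq2 2.11.40.8 were used with the hg38 (GRCh38) build. The annotation and the strand setting are not given in the sources used here. All 160380 deposited values above 0 (100%) were whole multiples of 1 read's worth at a tolerance of 0.01, so whole reads were recovered for edgeR 4.0.16 and DESeq2 1.42.0. The table ended at Entrez number 140467, so genes with higher numbers were not analysed here and totals are not full depths.

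Genes with a mean of at least 10 were fitted with limma 3.58.1 (R 4.3.3) on log2(normalized count + 1), with 4 group means over 12 libraries, a trend on the mean level and Benjamini-Hochberg adjustment over 11242 genes. Calls needed an adjusted p under 0.05. The fit was tested on simulated data. Headers gave a group and a library number but no replicate number. Alternatives were other pseudocounts, filters and scalings, no trend, only 2 groups, each library left out, edgeR and DESeq2. Overlaps and copies come from GENCODE on GRCh38, and copies were found by gene name only, without their type. Named were the 41 genes, the proliferation markers and, per other list and comparison, up to 5 called genes with the largest change, plus neighbours that overlap a member, chosen after their values were seen. Some genes of the other lists are counted but not reported by name here. The members and lists were chosen with earlier results of these data known.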

Additional observations from a re-analysis of the deposited data

How the results depend on the processing

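No paired analysis was possible because the column headers carry no replicate number, so no replicate block was fitted. After irradiation the number of members lower was 33 to 34 under every alternative run, and the number higher was 3 with any single library left out. The number higher was 5 at the same total, with RAD50 and ATM added. With palbociclib against DMSO 22 to 26 members were lower and 1 to 2 higher with 1 library left out (2 without A117), and 2 were higher with quantile normalization, where XRCC3 was added. With ruxolitinib against DMSO 8 were lower with only the 2 groups fitted, 1 by edgeR, 1 with quantile normalization, 0 without a filter on low values and 0 to 1 with 1 library left out. For palbociclib against ruxolitinib 34 were lower at the same total and 25 when the upper quartiles were matched, 2 were higher with quantile normalization, and 15 to 20 were lower and 1 to 2 higher with 1 library left out (2 without A120). Except where a value is given above, the cause of these shifts was not tested. Shares over all genes tested were counted only for the limma fit at the authors' scaling, so the counts under the alternatives have no background. Genes with few reads, such as XRCC2 and FANCB with palbociclib, were among the genes with wide intervals.

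Reported values near 0 that were not called in the report changed sign as follows. After irradiation RAD50 was 0.01 by DESeq2 and 0.01 by edgeR, 0.11 with quantile normalization, 0.18 at the same total and 0.10 with matched upper quartiles, and it ranged from -0.11 to 0.01 with 1 library left out. ATR was 0.08 with quantile normalization, 0.15 at the same total and 0.07 with matched upper quartiles, and CHEK2 ranged from -0.14 to 0.09 with 1 library left out. With palbociclib against DMSO the same total gave XRCC3 -0.04, FANCC -0.20, XRCC6 -0.18, MSH6 -0.12 and RMI2 -0.15. Matched upper quartiles gave FANCC -0.04 and XRCC6 -0.01, and quantile normalization gave FANCE 0.07, FANCM 0.02 and XRCC6 -0.19. With 1 library left out, FANCC ranged from -0.10 to 0.14, XRCC5 from -0.04 to 0.03 and RMI2 from -0.14 to 0.26. Between palbociclib and ruxolitinib FANCL was 0.10 with quantile normalization, and CHEK1 ranged from -0.14 to 0.02 with 1 library left out. Among these, limma called RAD50 at the same total (adjusted p = 0.0168) and XRCC6 with quantile normalization (adjusted p = 0.00214) and at the same total (adjusted p = 0.00318). Over the 41 genes, counting each gene under each alternative, values that were not called changed sign in 11 cases after irradiation, 27 for palbociclib against DMSO, 26 for ruxolitinib against DMSO and 15 for palbociclib against ruxolitinib. No value called in the report changed sign under the alternatives run. The cause was not tested.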
